A study of Homo sapiens with 6 samples.

Results

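The footprint-to-mRNA ratio was determined gene by gene in 786-O cells carrying an empty vector, which serve as the baseline of this study. 786-O is an established line from a clear cell renal carcinoma and has no functional VHL, the recognition subunit of the ubiquitin ligase for hypoxia-inducible factors. The ratio was taken for every named gene with a value of 1 or more in both the Ribo-seq and the RNA-seq column of the empty-vector cells, which held for 10068 of 19669 named genes. Cells of 3 labels were profiled, namely EV for the empty vector, WT, and MT, and each label has 1 Ribo-seq and 1 RNA-seq library (6 in all). EV cells carry the vector alone, and all groups are the same line with the same lack of VHL. The WT and MT cells differ from them in PHYHD1, a member of the iron- and 2-oxoglutarate-dependent dioxygenase family, and the sources disagree on how. The title names PHYHD1-WT and, for MT, a PHYHD1 without residues 107 to 130, whereas the design text calls WT untreated and MT the overexpressing group. WT and MT are used here only as further libraries in which the EV ratios can be read again. The design text names 3 dishes per condition, and whether they were pooled is not given.

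Ribo-seq sequences the short mRNA fragments that a ribosome shields from nuclease, so its level for a gene depends on how much mRNA there is and on how densely ribosomes occupy it. Dividing by the RNA-seq level of the same cells leaves the footprint density per mRNA, often called translational efficiency. The density depends on how often ribosomes start and on how long each one stays, and the ratio alone does not separate these. Cycloheximide was added to the culture medium before lysis, which stops elongating ribosomes but lets some continue to load near start codons. Mitochondria have ribosomes of their own, which translate the few proteins encoded in the mitochondrial genome and are not the target of cycloheximide.

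The Ribo-seq columns each summed to 1000000 and are TPM, while the RNA-seq columns summed to between 459938 and 469859 and were read as FPKM. Both units are scaled to length. Of 10 markers written for a renal carcinoma line, 9 stood at 1 or more in both EV libraries, the exception being LOX. None of 5 leukocyte, 4 endothelial and 3 hepatocyte markers reached 1 in either EV library, and of 5 fibroblast markers 1 did, in Ribo-seq. PHYHD1 itself stood at 0 TPM and 0.092 FPKM in EV cells and therefore has no ratio there. It had 221.7 TPM and 117.6 FPKM in WT, and 905.2 TPM and 109.5 FPKM in MT. Both labels thus held far more PHYHD1 signal than EV, and WT does not look untreated by these values. The files hold no read totals, so depth is unknown. With 1 library per assay no ratio has a replicate check, and no p-value or interval is given.

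Across the genes compared, the median gene had 1.1 TPM in Ribo-seq per FPKM in RNA-seq. Every ratio below is the log2 of TPM over FPKM minus that of the median gene, and is called the centred ratio. The quartiles of the centred ratio were -0.95 and 0.90, and percentiles 1 and 99 lay at -3.43 and 3.63, a 133-fold range of footprint density. A gene is called high or low when its ratio lay at least 2-fold above or below the median gene, which is a limit on size with no test behind it. By this rule 2279 genes (22.6%) were high and 2390 (23.7%) were low. The high genes held 66.9% of the Ribo-seq sum and 27.2% of the RNA-seq sum, and the low genes 2.57% and 31.7%. The limits do not mark a break, since 118 genes lay between 1 and 1.05 and 117 between 0.95 and 1, with 115 and 129 in the same windows on the low side.

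**Figure D1:**
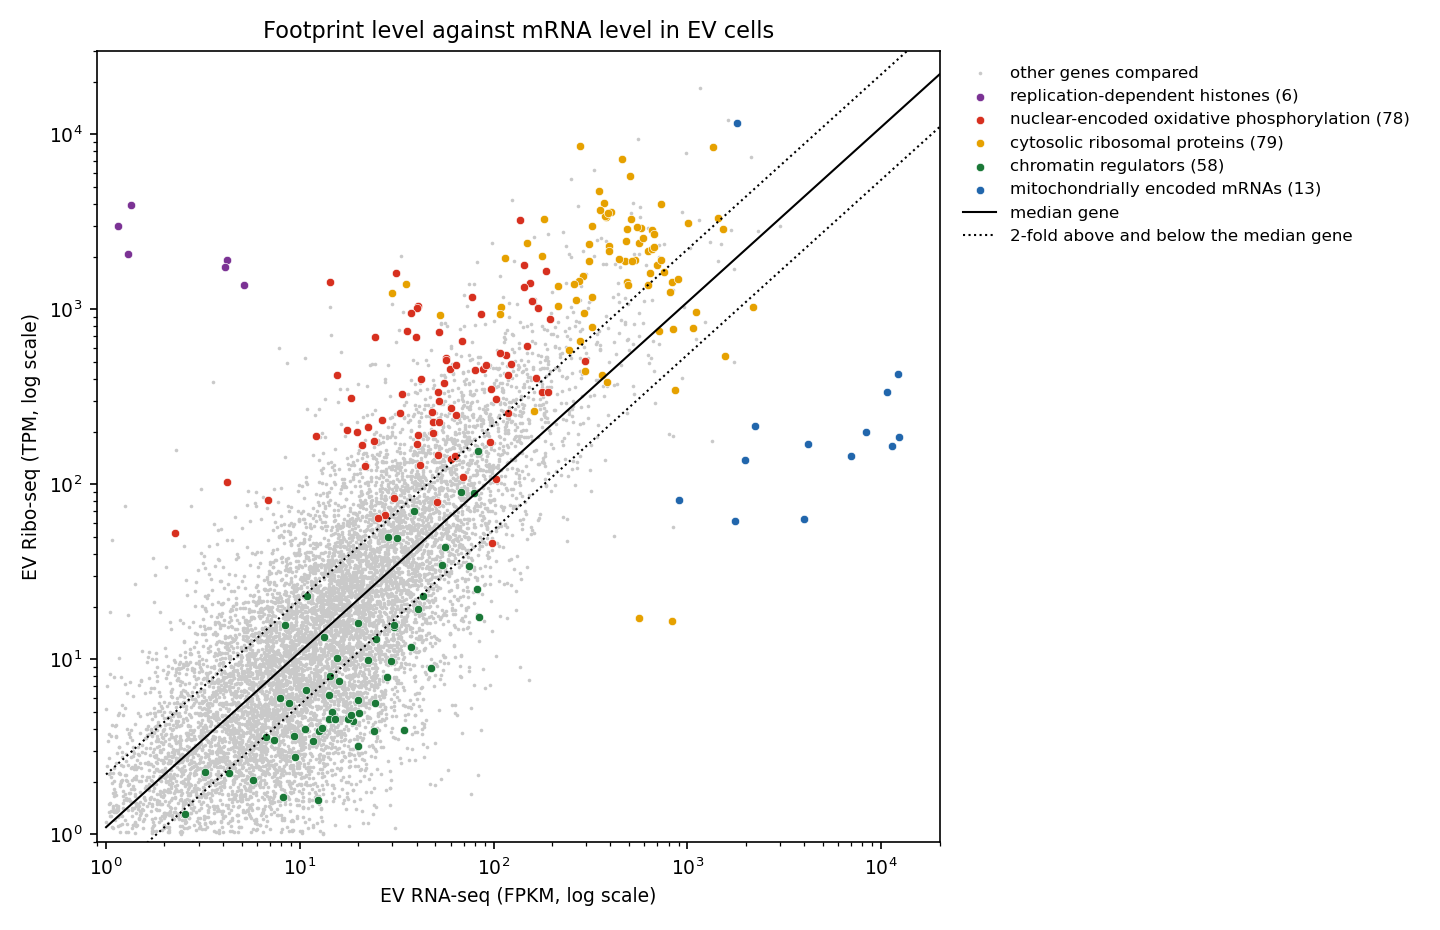
Ribo-seq level (TPM) against RNA-seq level (FPKM) of the 10068 genes compared in EV cells, both on log scales, 1 point per gene, with 5 gene lists in colour. The solid line is the median gene and the dotted lines lie 2-fold above and below it; nuclear-encoded oxidative phosphorylation genes sit mostly above the upper line, and chromatin regulators and 12 of 13 mitochondrially encoded mRNAs sit mostly below the lower one.

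The 2 assays ranked genes alike, with a Spearman rho of 0.76 and a Pearson r of 0.78 on log2 values across the 10068 genes, which are not independent replicates. The most abundant mRNAs had higher ratios, but the ratio did not rise steadily with mRNA level. By RNA-seq level alone the median was 0.28 at 1 to 3 FPKM and -0.17 at both 3 to 10 and 10 to 30. It was 0.12 at 30 to 100, 0.65 at 100 to 300 and 0.75 at 300 FPKM or more. A line fitted to the log2 values had a slope of 1.014. Minimum levels in both columns also select on Ribo-seq, the numerator of the ratio, which in itself raises the medians that follow. The median centred ratio was 0.39 over the 5031 genes at 10 or more in both columns and 0.89 over the 599 genes at 100 or more in both. At 10 or more in both columns, 1524 genes (30.3%) were high and 535 (10.6%) were low. Centring on the 599 abundant genes instead shifts every ratio down by 0.89 and turns the split into 8.22% high and 46.9% low. High and low below are therefore relative to the median gene compared, and the order of genes does not depend on that choice.

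The ratios were read again in the WT and MT libraries, which the choice of genes did not use. Of the 2245 high genes with a ratio in both, 1714 (76.4%) were high in both WT and MT, and of 2255 low genes 1634 (72.5%) were low in both. Among genes at 10 or more in both EV columns, 1266 of 1524 high genes (83.1%) and 387 of 535 low genes (72.3%) did so, and none had the opposite sign in both other labels. The difference between the EV and the WT ratio had a robust SD across genes (1.48 times the median absolute deviation) of 0.66 at 1 to 3 FPKM and 0.28 at 300 FPKM or more. Between EV and MT it was 0.68 and 0.18. These spreads contain differences between the labels as well as error, and they are the only measure of reproducibility available. Ratios of genes near 1 unit are thus far less certain than those of abundant genes.

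**Figure D2:**
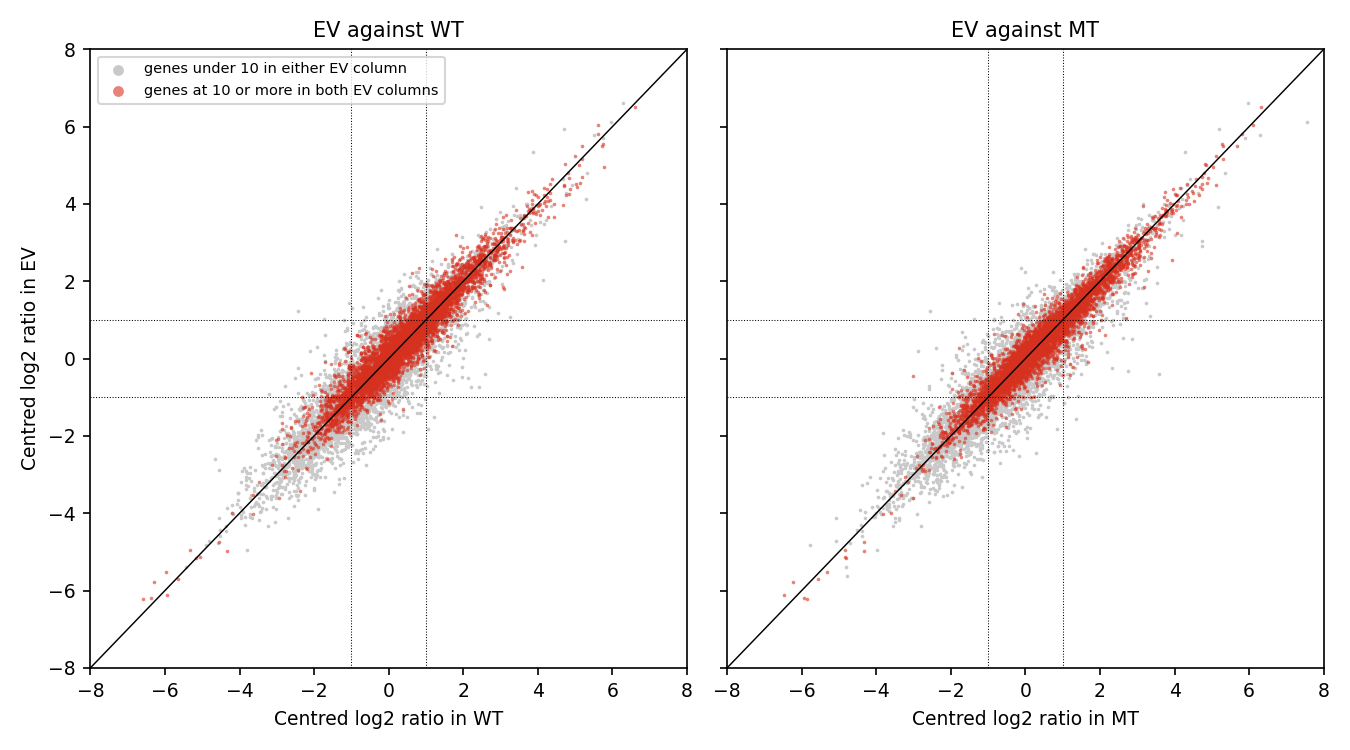
Centred log2 ratio of each gene in EV (vertical axis) against WT (left) and MT (right), with genes at 10 or more in both EV columns in red and the others in grey; 6 genes lie outside the axes. The solid line marks equal ratios and the dotted lines the 2-fold limits; red points keep closer to the line than grey points.

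Functions were compared by 47 gene lists, of which 45 had 5 or more genes compared. The median ratio was 1 or more in 9 lists and -1 or less in 2, and 36 medians were above 0 against 9 below. The highest medians belonged to histones, nuclear-encoded oxidative phosphorylation, the cytosolic and mitochondrial ribosome, mitochondrial import, the proteasome and the core spliceosome, and the lowest to chromatin regulators and mitochondrially encoded mRNAs. The plot of ratios by gene list gives the medians in all 3 labels. Counts of high and low genes in every list below are to be read beside the shares over all genes compared. These shares were 22.6% high and 23.7% low.

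**Figure D3:**
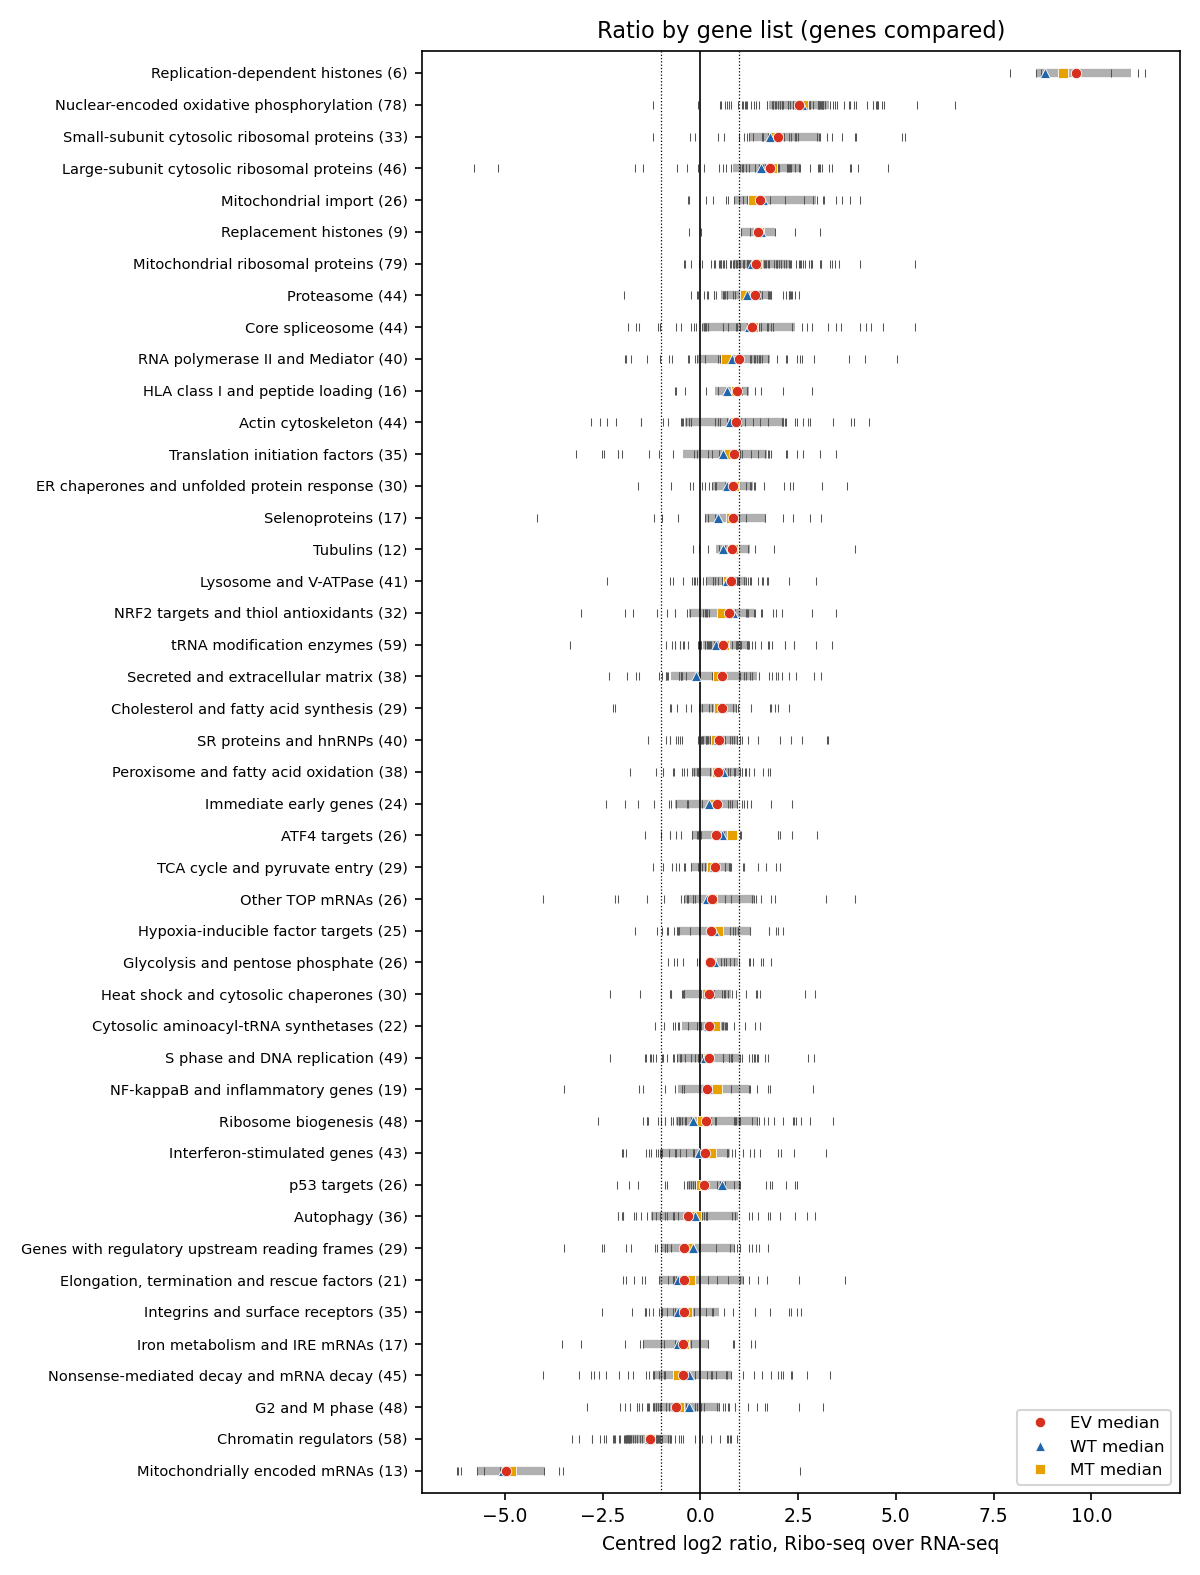
Centred log2 ratio of the genes compared in each of the 45 lists with 5 or more genes, with the number of genes in brackets. Ticks are genes in EV, grey bars the EV quartiles, and the circle, triangle and square the medians in EV, WT and MT; the dotted lines mark the 2-fold limits. The nuclear-encoded oxidative phosphorylation median lies at 2.52 in EV and that of the mitochondrially encoded mRNAs at -4.97.

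Oxidative phosphorylation showed the widest contrast. Its complexes combine subunits made in the cytosol from nuclear genes with a few made inside mitochondria. Of 78 nuclear-encoded genes compared, 69 (88.5%) were high and 1 was low, with a median of 2.52 in EV cells, 2.60 in WT and 2.61 in MT. Of all genes compared 22.6% were high, and of those at 10 or more in both columns 30.3%. By symbol, the medians were 2.63 for 37 NDUF genes of complex I, 3.15 for 9 genes of complex III, 3.05 for 9 COX genes of complex IV and 2.30 for 18 genes of ATP synthase.

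ATP5F1E, the epsilon subunit of ATP synthase, had the highest ratio of all genes at 10 or more in both columns. Its Ribo-seq values were 1433 TPM in EV cells, 1288 in WT and 1220 in MT, against RNA-seq values of 14.4, 11.7 and 13.7 FPKM, which gives centred ratios of 6.50, 6.61 and 6.33. The ratio was thus above 6 in all 3 labels. NDUFA4, first described in complex I and later placed in complex IV, had 1614 TPM and 31.3 FPKM in EV, a ratio of 5.55 (5.73 in WT and 5.27 in MT). UQCR11, a small subunit of complex III, had 698 TPM and 24.4 FPKM in EV, a ratio of 4.70. UQCRB, another small subunit of complex III, reached 3257 TPM at 137.5 FPKM (4.43 in EV cells, 5.05 in WT and 4.69 in MT). NDUFB6 and COX7B, accessory subunits of complexes I and IV, stood at 4.64 and 4.53. The lowest nuclear member compared was SDHA, the flavoprotein of complex II, at 46.3 TPM and 97.9 FPKM in EV. Its ratio was -1.22 (-1.56 in WT and -1.44 in MT). NDUFV2 of complex I had 80.4 FPKM but 0.892 TPM in EV, so it fell outside the genes compared. UQCRC2, a core subunit of complex III, lay at the median gene (-0.07 in EV). ATP5F1B, the catalytic beta subunit of ATP synthase, had 508 TPM and 297 FPKM, a ratio of 0.64. Protein length was not analysed here, and its part in these ratios was not tested.

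The mRNAs of the mitochondrial genome lay at the other end. Of 13 compared, 12 were low, and the median was -4.97 in EV cells, -5.05 in WT and -4.83 in MT. MT-CO2, a catalytic subunit of complex IV, had 186 TPM in EV cells, 133 in WT and 185 in MT, against 12400, 9865 and 10219 FPKM. Its ratio was -6.20 in EV cells, -6.38 in WT and -5.94 in MT. MT-CO1, the other core catalytic subunit, had 429 TPM and 12177 FPKM in EV, a ratio of -4.96. MT-ND1 of complex I stood at -6.12, MT-CYB of complex III at -4.75 and MT-ATP6 of ATP synthase at -6.23. The mildest of the 12 was MT-ND5, at 214 TPM and 2235 FPKM (-3.52). These low ratios refer to footprints recovered by a protocol built for cytosolic ribosomes, and how well mitochondrial ribosome footprints were recovered was not tested.

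MT-ATP8 was the exception, with 11621 TPM in EV cells, 11487 in WT and 21537 in MT against 1796, 1447 and 1284 FPKM. Its ratio was 2.56 in EV cells, 2.81 in WT and 3.92 in MT. The MT-ATP8 reading frame overlaps that of MT-ATP6 on one mRNA, so how reads were divided between the pair is uncertain, and the value is given with that limit. RefSeq names between 4 and 58 pseudogenes after the mitochondrial genes, so reads may also have been shared with nuclear copies.

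**Figure D4:**
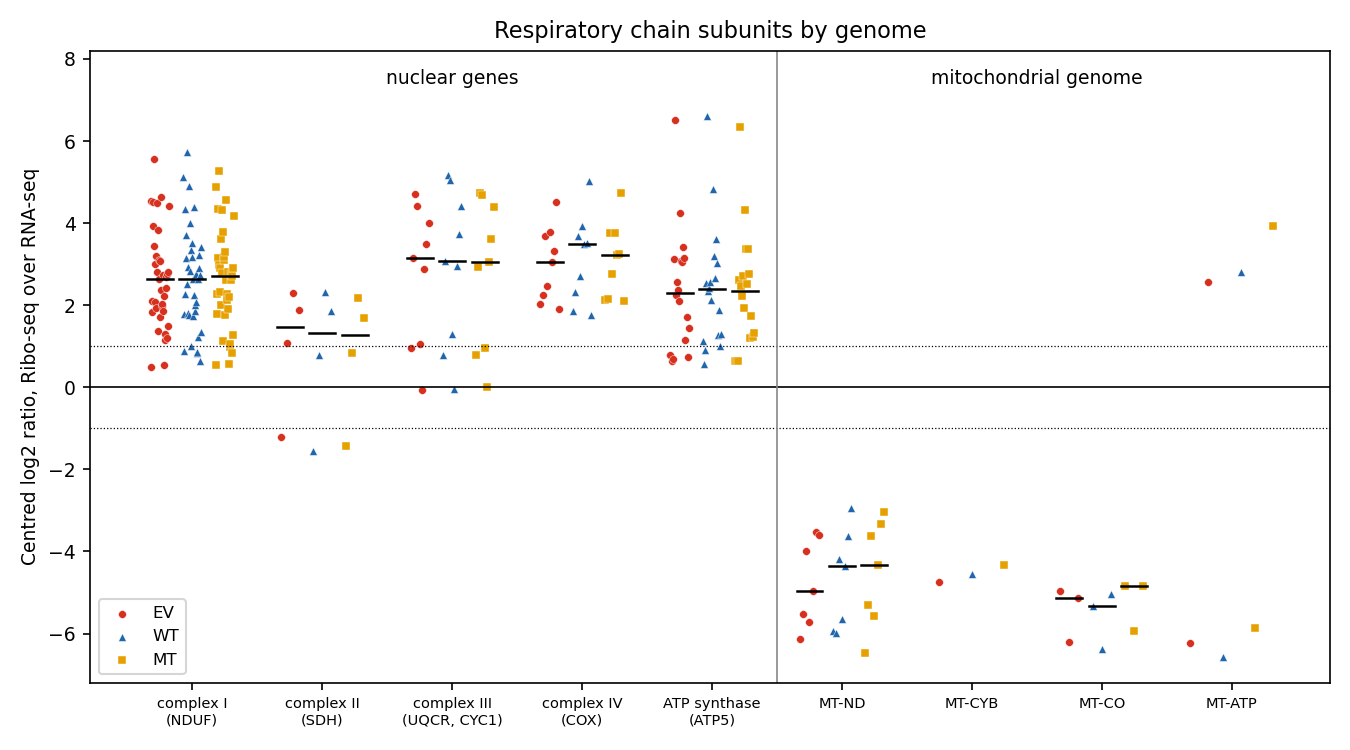
Centred log2 ratio of respiratory chain genes compared, by complex and by genome, in EV (circles), WT (triangles) and MT (squares); each point is a gene and black bars are medians of groups of 3 or more. Genes of the nucleus lie mostly above the upper 2-fold limit and those of the mitochondrial genome below the lower one, with MT-ATP8 as the exception at 2.56 in EV.

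Other nuclear genes for mitochondria were also mostly high. Of 79 mitochondrial ribosomal protein genes, 55 (69.6%) were high and none was low (median 1.43 in EV cells, 1.32 in WT and 1.45 in MT). MRPS21 led with 530 TPM and 10.7 FPKM in EV (5.50), followed by MRPL55 with 294 TPM and 15.8 FPKM (4.08), and MRPL37 was lowest at -0.42. Of 26 genes for mitochondrial import, 18 were high and none was low (median 1.53). TIMM13, a small chaperone of the intermembrane space, had 374 TPM and 19.9 FPKM (4.09), and TOMM5, a small subunit of the outer membrane channel, had 838 TPM and 53.4 FPKM (3.83). TIMM44, which links the import motor to the inner membrane channel, was lowest at -0.32. SLIRP, which binds and stabilises mitochondrial mRNAs, had the second highest ratio of all genes at 10 or more, with 1030 TPM in EV cells, 930 in WT and 1156 in MT against 14.3, 16.7 and 15.2 FPKM. Its ratio was 6.03 in EV cells, 5.62 in WT and 6.10 in MT. MICOS10, a subunit of the complex that shapes inner membrane folds, stood at 5.01. Genes of the mitochondrial ribosome were thus mostly high, while 12 of the 13 mRNAs that it translates were low and MT-ATP8 was high. This sets footprints of cytosolic ribosomes beside those of mitochondrial ribosomes, whose recovery was not tested.

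The cytosolic ribosome was high on both subunits. Of 33 small-subunit genes 27 were high and 1 was low (median 1.98 in EV cells, 1.78 in WT and 1.88 in MT), and of 46 large-subunit genes 34 were high and 4 were low (median 1.79, 1.56 and 1.84). RPL37 had 8538 TPM in EV cells, 7124 in WT and 8005 in MT against 278, 224 and 260 FPKM, with ratios of 4.80, 4.82 and 4.80. RPS10 had 1232 TPM and 29.9 FPKM in EV (5.23), and RPS29 had 1386 TPM and 35.4 FPKM (5.15). The 2 most abundant large-subunit genes, RPL7 and RPL7A, stood at 1.06 and 0.79. The members of one particle thus spanned from 5.23 to -5.78.

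A few members marked the lower end of the ribosome. RPL41, the shortest ribosomal protein, had 16.6 TPM in EV cells, 10.1 in WT and 11.2 in MT against 831, 702 and 759 FPKM, with ratios of -5.78, -6.29 and -6.23. RPL21 had 17.2 TPM in EV cells, 16.8 in WT and 21.6 in MT against 561, 534 and 546 FPKM, with ratios of -5.16, -5.16 and -4.81. RPL12 and RPL19 stood at -1.68 and -1.47, and RPS2, the most abundant small-subunit mRNA at 2169 FPKM, at -1.20. RPL23A had 11.8 FPKM but 0.828 TPM in EV, so it fell outside the genes compared. No other listed ribosomal protein gene was low or under 1 TPM in EV. Ribosomal protein genes have many processed pseudogenes, near-identical copies to which short reads can be assigned. RefSeq names 137 pseudogenes after RPL21, 95 after RPL23A, 55 after RPS2, 50 after RPL12, 21 after RPL19 and 7 after RPL41. The median ratio was 2.07 over the 40 ribosomal protein genes with 5 to 19 such copies, 1.98 over the 25 with 20 to 49, and 1.06 over the 11 with 50 or more, of which 6 were high and 3 low. The 3 with 1 to 4 copies had a median of 1.61, all high. Across all 79 the Spearman rho of copy number and ratio was -0.20, whereas across the 599 genes at 100 or more in both columns it was 0.16 and across all 10068 it was 0.12. RPS10, with 31 copies, and RPS29, with 33, were among the highest. How the authors assigned reads that match several places is not given. The low values of RPL41, RPL21, RPL12, RPL19, RPS2 and RPL23A are therefore uncertain, and the part of copies in them was not tested.

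Ribosomal protein mRNAs belong to the TOP class, which begins with a C followed by a run of pyrimidines and is controlled through mTOR and LARP1. Start sites with such a tract are shown for members at both ends of the ratio, since the tract is the feature that defines the class. Each line gives 30 bases from 10 before to 20 after the RefSeq start (GRCh38.p14), with the tract in capitals, where a tract means a C and at least 4 further pyrimidines beginning within 5 bases of that start.
RPL38, ratio 4.02, chr17:74203668-74203697, plus strand: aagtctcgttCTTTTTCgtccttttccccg
RPS21, ratio 3.96, chr20:62387093-62387122, plus strand: ctagctgCTTCCTTTCTCTCTCgcgcgcgg
RPLP2, ratio 3.86, chr11:809957-809986, plus strand: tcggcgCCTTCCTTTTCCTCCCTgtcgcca
RPS10, ratio 5.23, chr6:34426050-34426079, minus strand: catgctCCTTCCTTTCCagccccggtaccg
EEF1A1, ratio -0.14, chr6:73521013-73521042, minus strand: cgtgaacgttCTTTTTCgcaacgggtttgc
TPT1, ratio -1.35, chr13:45341164-45341193, minus strand: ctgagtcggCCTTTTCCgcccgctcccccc
RPL41, ratio -5.78, chr12:56116623-56116652, plus strand: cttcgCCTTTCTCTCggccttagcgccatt
RPL21, ratio -5.16, chr13:27251548-27251577, plus strand: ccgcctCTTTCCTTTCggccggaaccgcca
All lines shown were chosen for having a tract, so its presence in them is no result. The cores of RPL38 and EEF1A1 carry the same letters, and their ratios were 4.02 and -0.14. The part of the tract in the ratios was not tested.

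A tract was found at 68 of the 84 ribosomal protein and other TOP genes compared that matched a RefSeq promoter (81.0%), against 22.9% of all genes compared with a promoter and 21.1% of 27305 promoters. It was no more common in high genes (23.2%) than in low genes (23.5%). Within the TOP class the median ratio was 1.66 over the 68 genes with a tract and 1.94 over the 16 without. The 26 TOP mRNAs outside the ribosome had a lower median than the ribosomal proteins, at 0.31 in EV, with 8 high and 4 low. COX7C, a small subunit of complex IV, was highest at 3.97. EEF1A1, the elongation factor that brings tRNA to the ribosome, had 3001 TPM in EV cells, 2637 in WT and 2529 in MT against 3004, 3088 and 2811 FPKM, close to the median gene at -0.14, -0.40 and -0.30. PABPC1, which binds the poly(A) tail, was the lowest nuclear-encoded gene at 10 or more in both columns other than RPL41 and RPL21. It had 57.4 TPM in EV cells, 81.7 in WT and 64.1 in MT against 841, 908 and 812 FPKM, with ratios of -4.01, -3.65 and -3.81. RefSeq names 13 pseudogenes after PABPC1, so its value is uncertain. HNRNPA1, a splicing factor with 75 RefSeq pseudogenes, stood at -2.18, and CCNI, an atypical cyclin with none, at -2.09. TPT1, an abundant growth-associated protein, stood at -1.35.

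Translation factors were divided. Of 35 initiation factors 14 were high and 8 were low (median 0.85 in EV cells, 0.57 in WT and 0.75 in MT). The small factors that scan for the start codon were high, with EIF1 at 2762 TPM and 227 FPKM (3.47) and EIF1AX at 379 TPM and 41.5 FPKM (3.05). EIF4A1, the helicase that unwinds mRNA at the cap, had 50.5 TPM in EV cells, 53.7 in WT and 56.5 in MT against 417, 527 and 451 FPKM. Its ratio was -3.18 in EV cells, -3.47 in WT and -3.15 in MT, and RefSeq names 13 pseudogenes after it. EIF4G1, the scaffold of the cap complex, stood at -2.46 and EIF5B, which joins the subunits, at -2.52, neither with a named pseudogene. The 8 eIF3 subunits compared had a median of 0.66. Of 21 elongation, termination and rescue factors 7 were high and 6 low. EIF5A, which helps ribosomes past proline runs, had 3888 TPM in EV cells, 4473 in WT and 4337 in MT against 273, 320 and 293 FPKM, a ratio of 3.69, 3.63 and 3.74. GCN1, a large sensor of collided ribosomes, was lowest at -1.98, and GSPT1, a release factor, stood at -1.42. Of 22 genes for cytosolic aminoacyl-tRNA synthetases and their scaffold 3 were high and 1 low, with a median of 0.23.

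Large nuclear and cytosolic machines were high on balance but held members at both ends. In the core spliceosome 25 of 44 genes were high and 5 low (median 1.33). Among members after which RefSeq names no pseudogene, centred on all such genes, the median was 0.26, which is no longer past the limit. All 15 Sm and LSm proteins, which form rings on small nuclear RNAs, were high with a median of 2.85. LSM3 had 712 TPM in EV cells, 792 in WT and 774 in MT against 14.4, 13.3 and 13.7 FPKM, a ratio of 5.49, 5.72 and 5.67. SNRPG, with 20 RefSeq pseudogenes, had 1874 TPM and 82.1 FPKM (4.38). The 8 PRPF proteins had a median of -0.77, with PRPF8, the scaffold of the catalytic core, at -1.03. SNRNP200, the helicase that unwinds U4 from U6, was lowest at 20.5 TPM and 67.5 FPKM (-1.86). Among 12 RNA polymerase II subunits 9 were high (median 2.08). POLR2L, a subunit shared by the RNA polymerases, had 1079 TPM in EV cells, 917 in WT and 974 in MT against 29.8, 30.6 and 31.4 FPKM (5.04, 4.73 and 4.81). The other end held POLR2J, with 10.1 TPM and 34.1 FPKM (-1.89 in EV cells, -1.33 in WT and -0.91 in MT), whose near-identical gene copies make it uncertain, and POLR2A, the catalytic subunit, with 17.4 TPM and 53.4 FPKM (-1.76). In the proteasome 26 of 44 genes were high and 1 low (median 1.40). The 17 genes of the 20S core had a median of 1.75, the 6 ATPases of the cap 1.18 and its 11 other subunits 0.41. PSMB2 was highest at 2.53 and PSME4, a large activator, lowest at -1.94. UBL5, a small ubiquitin-like protein, had the third highest ratio of all genes at 10 or more, with 2024 TPM and 33.1 FPKM in EV (5.80 in EV cells, 5.62 in WT and 5.82 in MT).

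Chromatin regulators were the lowest list of nuclear genes. Of 58 compared, 40 (69.0%) were low and none was high, with a median of -1.29 in EV cells, -1.32 in WT and -1.28 in MT. Of all genes compared 23.7% were low, and of those at 10 or more in both columns 10.6%. Over the 21 of the 58 that reached 10 in both columns the median was -0.75, inside the limit. The median of all genes at that minimum was 0.39, and centred on those genes the list stood at -1.135, past the limit. Low genes are more frequent at low Ribo-seq level, at 57.9% of all genes at 1 to 3 TPM and 1.33% at 300 TPM or more. SUZ12, a subunit of the Polycomb complex that methylates H3K27, had 3.93 TPM in EV cells, 5.61 in WT and 3.41 in MT against 34.6, 38.4 and 38.2 FPKM. Its ratio was -3.28 in EV cells, -2.95 in WT and -3.63 in MT. KMT2A and SETD2, methyltransferases for H3K4 and H3K36, had 3.90 and 3.20 TPM in EV against 24.2 and 19.9 FPKM, each with a ratio near -2.8 (-2.77 and -2.78). CHD3, a remodeller of the NuRD complex, stood at -2.56. The highest was EED, a small partner of SUZ12, with 23.2 TPM and 10.9 FPKM (0.94), followed by the deacetylase HDAC1 with 155.5 TPM and 82.8 FPKM (0.77). SUZ12 and EED, which work in one complex, thus lay at opposite ends of the list.

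Genes of mitosis were low more often than high, and those of mRNA decay held members on both sides. Of 48 G2 and M phase genes 18 were low and 6 high (median -0.63 in EV cells, -0.28 in WT and -0.53 in MT). CENPF, a large kinetochore protein, had 14.5 TPM in EV cells, 19.9 in WT and 18.6 in MT against 97.7, 94.8 and 100.1 FPKM, with ratios of -2.89, -2.43 and -2.58. TPX2, which activates AURKA on the spindle, stood at -2.05, and ANLN, an organiser of the cleavage furrow, at -1.94. The highest were CKS2, a small cyclin-dependent kinase partner, at 2294 TPM and 235 FPKM (3.15), and BIRC5 (survivin) at 441 TPM and 69.6 FPKM (2.53). Of 45 genes of nonsense-mediated and general mRNA decay 15 were low (33.3%) and 11 high (24.4%), against 23.7% and 22.6% of all genes compared. Their median was -0.45, but over the 22 that reached 10 in both columns it was 0.52, so the sign turns with the minimum level. The median of all genes at that minimum was 0.39, and centred on those genes the list stood at 0.14, so most of the 0.52 is shared with all genes. None of 10 SMG and UPF factors lay above the median gene, and 5 were low. SMG1, the kinase of this pathway, had 2.66 TPM in EV cells, 2.29 in WT and 2.70 in MT against 39.3, 36.8 and 35.9 FPKM (-4.03, -4.18 and -3.88); RefSeq names 7 pseudogenes after it, so its value is uncertain. CNOT1, the scaffold of the deadenylase complex, stood at -2.07. Exosome subunits were high in 8 of 12 cases (median 1.78), and MAGOH, a small core protein of the exon junction complex, was highest at 265 TPM and 24.3 FPKM (3.31).

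Some mRNAs carry known elements that lower their translation. Ferritin mRNAs hold an iron-responsive element near the 5' end, to which iron regulatory proteins bind when iron is scarce. FTL had 177 TPM in EV cells, 200 in WT and 178 in MT against 1337, 1209 and 1507 FPKM, with ratios of -3.05, -2.77 and -3.23. It was the lowest gene at 100 or more in both columns outside the mitochondrial genome. FTH1 had 503 TPM in EV cells, 409 in WT and 460 in MT against 1742, 1299 and 1700 FPKM (-1.93, -1.84 and -2.03). RefSeq names 20 and 27 pseudogenes after FTL and FTH1, so reads may have been shared, and the part of this was not tested. The stretch of FTL that holds the CAGTGN loop of the element, in capitals, lies from base 20 after the RefSeq start.
FTL, chr19:48965329-48965358 (GRCh38.p14), plus strand: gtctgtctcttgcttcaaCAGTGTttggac
The loop letters CAGTGN occur on the sense strand within the first 50 bases of 6.32% of all promoters and on the antisense strand of 5.96%, and among iron-list genes with a promoter only in FTL, so their presence alone is a description. EPAS1, which encodes HIF-2alpha and has a 5' element of the same kind, had 6.32 TPM in EV cells, 4.996 in WT and 6.56 in MT against 16.6, 16.5 and 12.1 FPKM (-1.53, -1.90 and -1.03). CDC42BPA, a kinase whose mRNA has been described with a 3' element, was lowest at -3.54. TFRC, the transferrin receptor, whose elements lie in the 3' UTR and act on mRNA stability, was highest at 108 TPM and 37.3 FPKM (1.39). In the whole iron list 6 of 17 genes were low and 2 high, with a median of -0.43.

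Genes known for regulatory upstream reading frames had a median of -0.41 in EV cells, -0.18 in WT and -0.29 in MT, with 8 of 29 low and 6 high, against 23.7% low and 22.6% high over all genes. ODC1, the first enzyme of polyamine synthesis, had 12.04 TPM in EV cells, 11.01 in WT and 11.5 in MT against 62.6, 79.8 and 77.9 FPKM, with ratios of -2.52, -3.03 and -2.91. BIRC3, an inhibitor of apoptosis, was lowest with 1.02 TPM and 10.3 FPKM (-3.48), and IBTK stood at -2.45. ATF4, the main effector of the integrated stress response and the textbook case of this control, had 176 TPM in EV cells, 206 in WT and 226 in MT against 183.5, 188 and 157 FPKM. Its ratio was -0.20 in EV cells, -0.04 in WT and 0.38 in MT. It lay inside the limits in all 3 labels, with the sign in MT opposite to that in EV. UCHL1, a neuronal deubiquitinase also made in some tumours, was highest at 2060 TPM and 563 FPKM (1.74). Values per gene cannot show whether footprints lay in the upstream or the main frame. Among 17 selenoproteins, in which a UGA codon is read as selenocysteine, 7 were high and 2 low. SELENOK was highest at 3.08, SELENON lowest with 1.48 TPM and 24.1 FPKM (-4.17 in EV cells, -3.48 in WT and -3.39 in MT), and GPX4, which reduces lipid peroxides, lay at 0.20.

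The actin cytoskeleton also held members at both ends of the ratio. Of 44 actin cytoskeleton genes 20 were high and 6 low (median 0.92), although the median was -0.22 among members without a named pseudogene. TMSB10, a thymosin that sequesters actin monomers, had the highest Ribo-seq value of the genes compared in EV, with 18427 TPM in EV cells, 19562 in WT and 19220 in MT against 1158, 1001 and 1054 FPKM (3.85, 4.11 and 4.04). TMSB4X, the other thymosin, had 9393 TPM and 558 FPKM (3.94). MYL12A, a myosin light chain, was highest at 5547 TPM and 252 FPKM (4.33). ACTB, beta-actin, had 12118 TPM in EV cells, 9676 in WT and 10930 in MT against 1619, 1889 and 1815 FPKM (2.77, 2.18 and 2.44). The 3 filamins, long actin crosslinkers, were all low, with FLNA at 120.5 TPM and 314 FPKM (-1.52). TLN1, which ties integrins to actin, was lowest at 8.73 TPM and 54.9 FPKM (-2.79). Tubulins had a median of 0.80, with 4 of 12 high and none low.

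Surface and secreted proteins varied by member. Of 35 integrins and surface receptors 8 were low (22.9%) and 7 high (20%), with a median of -0.43. Over all genes compared the shares were close to these, at 23.7% and 22.6%. PTPRF, a large receptor phosphatase, was lowest at -2.52, MET, the receptor of hepatocyte growth factor, stood at -1.31, and CD44, the hyaluronan receptor, was highest at 766 TPM and 117 FPKM (2.58 in EV cells, 1.52 in WT and 2.28 in MT). Among 38 secreted and matrix genes 16 were high and 5 low. CCN1 led with 1002 TPM and 108 FPKM (3.08), and LAMA3, a laminin chain, was lowest at -2.32. TGFBI, an abundant matrix protein, had 2933 TPM and 629 FPKM (2.08), whereas FN1, fibronectin, had 139 TPM and 374 FPKM (-1.57). The 7 laminins and 5 collagens compared had medians of -0.83 and -0.87. In the 30 genes for endoplasmic reticulum chaperones and the unfolded protein response 11 were high and 1 low, with SEC61G, a small subunit of the translocon, highest at 3.76 and CALR, a lectin chaperone, at 1788 TPM and 613 FPKM (1.41). Among 30 cytosolic and mitochondrial chaperones, HSPE1 was highest at 2.93 and HSP90AB1 lowest, with 189 TPM in EV cells, 250 in WT and 196 in MT against 843, 959 and 882 FPKM (-2.30, -2.11 and -2.32).

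Hypoxia-inducible factor targets and glycolysis genes had list medians near the median gene. EPAS1, described above, was low in all 3 labels (-1.53 in EV cells, -1.90 in WT and -1.03 in MT). VHL had 7.41 TPM and 13.5 FPKM in EV, at the low limit with -1.005 (-0.85 in WT and -0.80 in MT). The 25 hypoxia-inducible factor targets compared had a median of 0.27, with 7 high and 2 low. NDRG1, a hypoxia-induced growth regulator, was highest at 646 TPM and 135 FPKM (2.12 in EV and 2.85 in both WT and MT), and KDM3A, a histone demethylase, lowest at -1.68. VEGFA, the main angiogenic factor, had 36.3 TPM and 59.6 FPKM (-0.85 in EV cells, -1.72 in WT and -0.68 in MT), and CCND1, cyclin D1, had 135 TPM and 68.8 FPKM (0.83). Glycolysis and the pentose phosphate pathway had a median of 0.26, with 6 of 26 high and none low, and GAPDH stood at 0.15. TPI1 was highest at 1.81. Cholesterol and fatty acid synthesis had a median of 0.55, with SREBF2, the transcription factor that drives it, lowest at -2.22 and the enzyme MSMO1 highest at 2.26. The interferon-stimulated genes held 9 high (20.9%) and 10 low (23.3%) of 43, near the 22.6% and 23.7% of all genes compared. IFI6 was highest at 3.21 and SAMD9L lowest at -1.99. S phase genes had 13 high and 7 low of 49, with GINS2, a small subunit of the replicative helicase, highest at 2.90 and E2F1, a cell cycle transcription factor, lowest at -2.32.

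Autophagy had a median of -0.32, with 9 of 36 high and 12 low. Its high genes included the 4 compared members of the ATG8 family, small proteins that are attached to autophagosome membranes. GABARAPL2 was highest at 295 TPM and 35.2 FPKM (2.93 in EV cells, 3.10 in WT and 2.64 in MT). The lowest, ATG13, a subunit of the initiating kinase complex, had 5.64 TPM and 22.2 FPKM (-2.12), but -0.25 in WT and -0.47 in MT, so its EV call was not seen again. RB1CC1, a large scaffold of the same complex, had 10.96 TPM and 39.5 FPKM and stood at -1.99, -2.74 and -2.30.

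The remaining lists are given in turn, against 22.6% high and 23.7% low over all genes compared. Lysosome and V-ATPase genes had a median of 0.79, with 13 of 41 high and 1 low. ATP6V0E1, a small subunit of the proton pump, was highest at 854.5 TPM and 100.1 FPKM (2.96). Genes of class I antigen presentation were high in 7 of 16 cases with none low, led by B2M, the invariant light chain, at 7804 TPM and 979 FPKM (2.86). NRF2 targets and thiol antioxidants had 12 high and 4 low of 32. PRDX1, a peroxide-reducing enzyme, had 2329 TPM and 714 FPKM (1.57), and FTL is again the lowest there. Among 59 tRNA modification enzymes 20 were high and 1 low (median 0.59). TRMT112, a small activator of several methyltransferases, was highest at 768 TPM and 67.3 FPKM (3.38), and DUS1L, a dihydrouridine synthase, lowest at 3.50 TPM and 32.2 FPKM (-3.34).

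Ribosome biogenesis, in contrast to the ribosome itself, had a median of 0.15 in EV, -0.18 in WT and 0.03 in MT, with 15 of 48 high and 7 low. NOP10, a small protein of box H/ACA particles, had 515 TPM and 45.0 FPKM (3.38), whereas NCL, nucleolin, had 256 TPM and 490 FPKM (-1.07). SR proteins and hnRNPs had 10 high and 1 low of 40, with RBM3, a cold-induced RNA-binding protein, highest at 1181 TPM and 111 FPKM (3.27). The TCA cycle list had 6 high and 1 low of 29, with DLAT, the acetyltransferase of pyruvate dehydrogenase, highest at 2.04, and peroxisome and fatty acid oxidation genes had 11 high and 2 low of 38. ATF4 targets had 7 high and 2 low of 26. CHAC1, which degrades glutathione, was highest at 2.98, and SLC3A2 and SLC7A5, partners in one amino acid transporter, stood at 2.04 and -1.002. The p53 targets had 7 high and 3 low of 26, with CDKN1A (p21) at 1.68 and CCNG2, cyclin G2, lowest at -2.12. Immediate early genes had 6 high and 4 low of 24, with ATF3, a stress-induced transcription factor, highest at 2.33 and SRF, which drives many of these genes, lowest at -2.41. NF-kappaB and inflammatory genes had 6 high and 3 low of 19, with the chemokine CCL2 highest at 2.87 and BIRC3 lowest. The 4 metallothioneins compared, small metal-binding proteins, were all high in EV. MT2A, the most abundant, had 1128 TPM and 279 FPKM, a ratio of 1.88 in EV, 0.55 in WT and 1.83 in MT, so it was not high in WT.

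Replication-dependent histones had almost all their signal in Ribo-seq. These genes supply chromatin in S phase, and their mRNAs end in a stem-loop in place of a poly(A) tail, whereas replacement histones are made through the cell cycle from polyadenylated mRNAs. The 63 replication-dependent genes had a median of 1011 TPM in EV cells, 929 in WT and 961 in MT, and 51 of them reached 100 TPM or more in EV. Their RNA-seq median was 0.072 FPKM in EV cells, 0 in WT and 0.14 in MT, and 30 were listed at 0 in EV. They made up 7.78% of the EV Ribo-seq sum and 0.00568% of the RNA-seq sum, against 0.571% and 0.266% for 14 replacement histone genes. The labels do not say whether RNA-seq libraries were selected for poly(A) tails, and the part of such a selection was not tested.

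Of the 63, 57 fell outside the genes compared. The 6 that were compared were all high, between 7.92 and 11.38. H1-2, a linker histone, had 1919 TPM in EV cells, 1843 in WT and 1782 in MT against 4.19, 3.87 and 4.60 FPKM. H4C14 had 3960 TPM and 1.35 FPKM, the highest ratio of all genes compared. These ratios rest on RNA-seq values between 1.15 FPKM (H2AC18) and 5.14 FPKM (H2AC6). Many histone genes are also near-identical, as H2AC18 and H2AC19 show with 2981 TPM each in EV but 1.15 and 0 FPKM. Among 9 replacement histones 7 were high and none low (median 1.48 in EV cells, 1.54 in WT and 1.49 in MT). H2AZ1 had 1878 TPM and 317 FPKM (2.43), H3-3B stood at 1.48, and MACROH2A1, with its added macro domain, was lowest at -0.29. In bulk libraries a low level in every cell and a high level in the cells of one phase cannot be told apart.

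**Figure D5:**
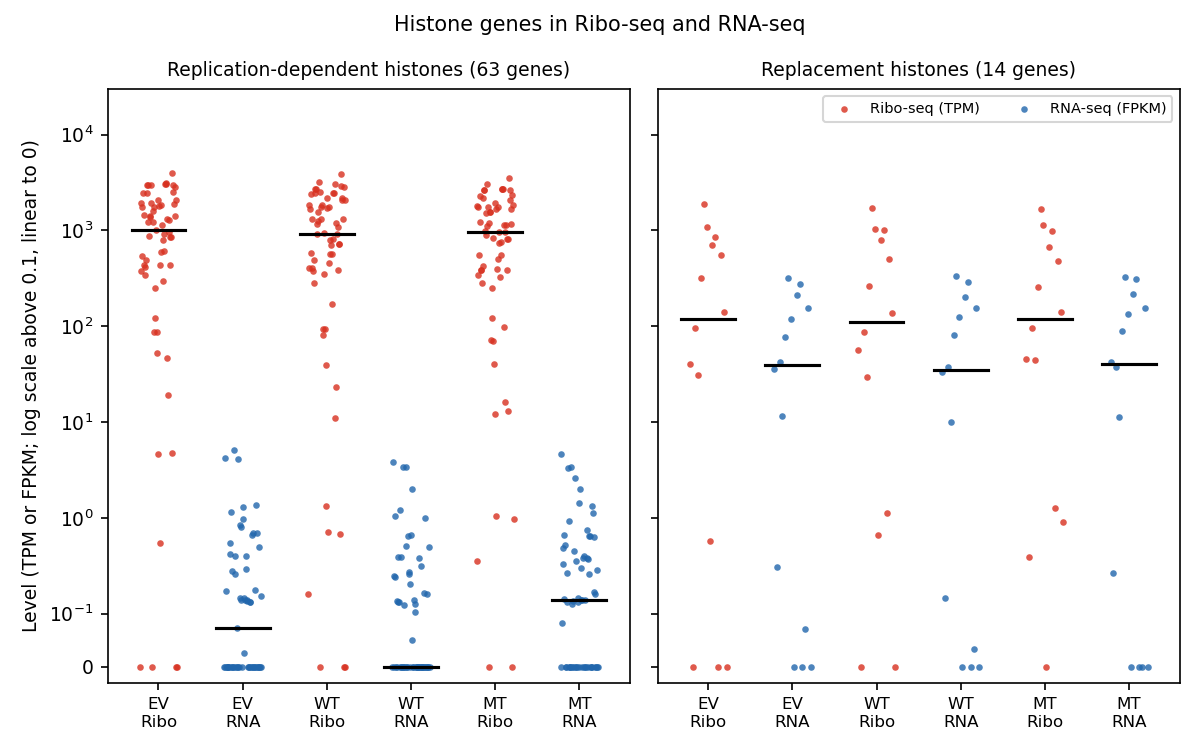
Ribo-seq (TPM, red) and RNA-seq (FPKM, blue) values of 63 replication-dependent and 14 replacement histone genes in EV, WT and MT, on an axis that is logarithmic above 0.1 and linear down to 0; black bars are medians. The replication-dependent median in EV is 1011 TPM in Ribo-seq and 0.072 FPKM in RNA-seq, whereas replacement histones overlap between the assays.

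Genes seen in Ribo-seq only were few. At 1 TPM or more and listed at 0 in RNA-seq there were 55 of 10413 genes (0.528%), 29 of them at 10 TPM or more. Replication-dependent histones accounted for 26 of the 55 and 24 of the 29, led by H3C14 with 3044 TPM in EV cells, 2470 in WT and 2697 in MT and 0 FPKM in all 3. A further 9 had readthrough names, which join 2 neighbouring genes and cannot be told apart from them in short reads. Of the rest, MIURF had 15.4 TPM in EV cells, 20.1 in WT and 26.4 in MT and POLGARF 6.85, 4.23 and 2.22 TPM, both at 0 FPKM in every library. MIURF is a microprotein read from the leader of the MIEF1 mRNA, and POLGARF is read from an overlapping frame of the POLG mRNA, so neither has an mRNA of its own. ACTG2, the smooth muscle gamma-actin, had 11.9 TPM in EV cells, 21.4 in WT and 15.2 in MT with 0 FPKM throughout. Its coding sequence is close to that of other actins, of which ACTB alone had 12118 TPM in EV, so its value is uncertain. NDUFA4L2, a hypoxia-induced mitochondrial protein, had 2.02 TPM in EV cells, 1.11 in WT and 0.273 in MT. MIURF, POLGARF, ACTG2 and NDUFA4L2 were chosen after their values were seen.

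Genes seen in RNA-seq only numbered 120 of 10897 (1.10%), 20 of them at 10 FPKM or more. Of the 120, 67 were listed at 0 in all 3 Ribo-seq libraries. HIGD1A, a small mitochondrial protein induced by hypoxia, led with 76.2 FPKM in EV cells, 77.3 in WT and 73.2 in MT, and ASNS, asparagine synthetase and a target of ATF4, had 61.5, 54.6 and 43.3 FPKM. Both were listed at 0 TPM in all 3 libraries. RefSeq names 18 pseudogenes after HIGD1A and 5 after ASNS, and 8 of the 120 had any. Families of near-identical copies, counted from a fixed set of symbol starts, held at least 21 of the 120. Among them were NBPF9 with 44.1 FPKM, NBPF14, NPIPA8, NPIPA1, NPIPB13 and FAM72B, and 15 more had readthrough names. Other copied genes, such as the AGAP and WASH genes listed at 0, stand outside that count. MGAT2, an enzyme of N-glycan synthesis, had 14.5 FPKM in EV cells, 14.04 in WT and 14.1 in MT, is not in such a family and has 2 named pseudogenes. PILRB, an immune receptor, had 27.5 FPKM, LRATD2 had 26.9 FPKM, and WASHC1, of the endosomal WASH complex, had 13.8 FPKM in EV, all at 0 TPM in all 3. WASH6P, of the same family as WASHC1, had 7.96 FPKM in EV and was also at 0 TPM in all 3, so the WASHC1 value is uncertain. A listed 0 may be a value that the authors' pipeline could not assign, so these genes are given as listed at 0 and not as untranslated.

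Close to these sets lay genes with traces in the second assay. In EV 47 genes at 10 FPKM or more had a Ribo-seq value above 0 and under 1 TPM. NDUFV2, a core subunit of complex I, had 0.892 TPM in EV cells, 1.14 in WT and 0.841 in MT against 80.4, 75.7 and 76.2 FPKM, whereas the 37 NDUF genes compared in the list all lay above the median gene. GPR160, an orphan receptor, had 0.081 TPM and 20.3 FPKM. On the other side 42 genes at 10 TPM or more had an RNA-seq value above 0 and under 1 FPKM, and 26 of these were replication-dependent histones. CXCL8, the chemokine interleukin-8, had 27.8 TPM in EV cells, 12.8 in WT and 26.0 in MT against 0.373, 1.21 and 0.591 FPKM. SNURF, which shares one bicistronic mRNA with SNRPN, had 15.4 TPM in EV cells, 25.3 in WT and 21.8 in MT against 0.299, 1.83 and 0.513 FPKM. NDUFV2, GPR160, CXCL8 and SNURF were chosen after their values were seen.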

How the data were processed

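Ribo-seq and RNA-seq of 786-O cells were analysed from 1 deposited table with 1 column per library. Per the labels' protocols, cells were held in cycloheximide, lysates were digested with RNase I to leave footprints, antisense DNA probes took out ribosomal RNA, and libraries of both assays came from NEBNext kits. The submitters' processing notes name hg 18; the sources used here do not give the aligner, the annotation, the treatment of multi-mapping reads or the length used for scaling. The deposited Ribo-seq values are TPM, since each column sums to 1000000. The deposited RNA-seq values carry no unit in the file headers and were read as FPKM from their sums; a constant factor drops out on centring. No whole reads could be recovered, so no count test was used.

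Of 20307 rows, 605 without a gene name (0.52% of the EV Ribo-seq sum and 0.153% of the RNA-seq sum) and 7 symbols on several rows were left out. The ratio was log2(TPM/FPKM) minus its median over genes at 1 or more in both columns, with no pseudocount. High and low mean a centred ratio of 1 or more and -1 or less. In each list described, the named genes are the highest, the lowest, the 2 most abundant and others past the limits. Beside these stand the 15 highest and lowest ratios at 10 units, the 10 at 100 units, the 12 highest values in each assay alone, and 8 fixed genes; readthrough names are left out. Some genes that this rule picks are not reported here. Subgroups of lists were formed by symbol after the values were seen. Genes and lists were chosen with earlier results of these data known. Sequences and pseudogene names come from RefSeq (GRCh38.p14). Calculations used Python 3.11.15, numpy 2.4.6, pandas 2.3.3 and scipy 1.17.1, and were tested on simulated data. Other minimum levels, a pseudocount, centring, a fitted slope, the mean of 3 labels and genes without pseudogenes were tried.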

Additional observations from a re-analysis of the deposited data

Results flagged for a closer look

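The 38 secreted and extracellular matrix genes compared had a median ratio of 0.56 in EV, -0.12 in WT and 0.46 in MT, so the sign differed between EV and WT. With 1 library per label and assay this difference was not tested.

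Rows that carry no gene name stood outside all comparisons. In EV 31 of them had 10 TPM or more in Ribo-seq and 0 in RNA-seq, with 35 in WT and 32 in MT; the highest unnamed value in EV was 569 TPM.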

How the results depend on the processing

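The counts depended most on the minimum level and on the centre. With a minimum of 10 in both columns and the centre of those genes, 1027 genes were high and 926 low. Of these, 987 high and 436 low genes were past the same limit in WT and MT. The WT and MT ratios kept a minimum of 1 and their own centres there. The counts 987 and 436 thus mix centres and do not measure agreement between labels. With the minimum of 10, 5 lists had a median of 1 or more. Lost were mitochondrial ribosomal proteins at 0.99, the proteasome at 0.95 and the core spliceosome at 0.95. Replication-dependent histones had too few genes left for a value. With that minimum in the assay that shows the gene, 20 genes were in RNA-seq only and 29 in Ribo-seq only. Centred on genes at 100 or more in both columns, 828 genes were high and 4722 low, 3 lists had a median of 1 or more and 9 of -1 or less. In genes after which RefSeq names no pseudogene, an alternative chosen after seeing the data, 7 lists had a median of 1 or more and 1 of -1 or less. The mitochondrially encoded list and both cytosolic ribosomal protein lists have no member in that setting, since RefSeq names pseudogenes after all of them. There the core spliceosome median was 0.26 and the actin cytoskeleton median -0.22, against 1.33 and 0.92. Listed at 0 in all 3 libraries of the other assay were 67 genes in RNA-seq only and 27 in Ribo-seq only. Of 310 list medians under 7 alternatives 247 moved by less than 0.41, the robust SD between the EV and WT ratios, and 63 by more, 45 of them on centring on abundant genes. Of 285 values of named genes 277 stayed on their side of the limits, 4 moved inside and 4 outside. This check covered 46 genes, most of them picked as the highest or lowest ratios. Such genes lie far past the limits, so their staying there was largely set by the choice. Genes named only from the lists were not in it. No list median past a limit, and none of the 46 genes past one, changed sign under these alternatives. Among those inside the limits, 41 list medians changed sign, namely 24 on centring on abundant genes, 11 at a minimum of 10 (mRNA decay to 0.14), 3 with the mean of the labels and 3 without pseudogenes. GAPDH stood at -0.24 at a minimum of 10 and -0.75 centred on abundant genes, CCND1 at -0.06 there, and ATF4 at 0.03 with the mean of the labels. The alternative with protein length was not run, as no protein table was used here. Leaving out a replicate was not possible with 1 library per label and assay. No paired analysis was possible because each label has 1 library per assay. Depth is unknown, and values near 1 unit varied most between labels.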

Other observations

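Symbol families outside the lists were read in the same way, for the 66 symbol roots with 15 or more genes compared; these were formed after the data were seen and are a description only. Among the low families, ZDHHC genes, which encode the enzymes that attach palmitate to proteins, were low in 13 of 17 cases, with a median of -1.75 in EV, -1.77 in WT and -1.63 in MT. Of 25 kinesin (KIF) genes, the motors that walk on microtubules, 15 were low (median -1.17), and of 40 ubiquitin-specific protease (USP) genes 21 were low (median -1.02). At the other end, TRAPPC genes, subunits of the tethering complexes of the secretory pathway, had a median of 1.32. The median was 1.13 for ARL genes, mainly small GTPases of membrane traffic, and 0.96 for UBE genes, mainly ubiquitin-conjugating enzymes. The 166 solute carrier (SLC) genes and the 131 genes with the root TMEM lay close to the median gene, at 0.20 and 0.34.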
